A study of Mus musculus with 2 samples.

Results

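The mir-181 family comprises 6 microRNA genes of the mouse, Mir181a-1, Mir181b-1, Mir181a-2, Mir181b-2, Mir181c and Mir181d, which lie as neighbours in 3 clusters. They were taken by symbol from the 1973 microRNA genes of the count tables, and all 6 were present and had counts in both libraries. The study measured microRNA-sized RNA in heart tissue of B6NCrl mouse embryos of mixed sex at embryonic day 12.5, whose number the labels omit. It holds 1 group of 2 biological replicates with 1 library each, and the labels name no treatment or altered genotype, so no contrast between conditions exists. Replicate 1 held 4478599 sense counts over all genes, and replicate 2 held 5279908. Levels are given in CPM, a gene’s sense counts per 1000000 sense counts of its library, as mean ± SD with n = 2.

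A microRNA gene is transcribed into a hairpin that is cut to a short duplex. One arm of it, the 5p or the 3p strand, is loaded into an Argonaute protein and pairs with messenger RNAs mainly through bases 2 to 8, the seed. The miR-181 family is known from T and B cell development, where miR-181a tunes T cell receptor signalling. In blood vessels miR-181b is known to dampen NF-kB signalling in endothelium, and miR-181c is known from the mitochondria of heart muscle cells.

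All 6 genes make a 5p strand with the same seed, which is the feature that unites the family. Of the 12 mature sequences of the family in the RefSeq table (GRCm38.p6), the 6 from the 5p arm reduce to 4 distinct sequences. They are shown in 5′ to 3′ direction with the seed in capitals, because they decide which reads can be assigned to which gene.
miR-181a-5p, from Mir181a-1 and Mir181a-2: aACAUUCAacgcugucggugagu
miR-181b-5p, from Mir181b-1 and Mir181b-2: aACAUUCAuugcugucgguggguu
miR-181c-5p, from Mir181c: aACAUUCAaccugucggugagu
miR-181d-5p, from Mir181d: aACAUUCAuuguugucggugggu

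Counted from the 5′ end, miR-181b-5p differed from miR-181a-5p by the substitutions A9U, C10U and A21G and by 1 further base at its end. The strand of Mir181d differed from miR-181b-5p by C12U and by 1 base in length. The strand of Mir181c was an edit distance of 1 from miR-181a-5p, since it lacks 1 base inside the strand. By sequence, Mir181c thus resembled the a genes and Mir181d the b genes. This seed was carried by 6 mature entries of the RefSeq set, and all 6 belonged to the family.

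The 3p strands were distinct at all 6 genes and carried 4 seeds. They are shown because they are the mature strands that tell the copies of miR-181a and of miR-181b apart.
miR-181a-1-3p: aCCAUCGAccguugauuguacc
miR-181a-2-3p: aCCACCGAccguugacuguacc
miR-181b-1-3p: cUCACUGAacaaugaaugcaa
miR-181b-2-3p: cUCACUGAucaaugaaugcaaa
miR-181c-3p: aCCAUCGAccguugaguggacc
miR-181d-3p: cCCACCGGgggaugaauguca

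The 3p strands of Mir181a-1 and Mir181c shared a seed, and so did those of Mir181b-1 and Mir181b-2. The 3p strands of Mir181a-2 and Mir181d each had a seed of their own. No mature sequence outside the family in the RefSeq table had any of these 4 seeds (0 entries for each).

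Reads that fit several places are kept in a row of their own in the deposited tables and enter no gene's count. They made up 27.1% of all reads in replicate 1 and 25.3% in replicate 2, and they cannot be assigned to families here. For miR-181a-5p and miR-181b-5p this matters, since each occurs in 2 hairpins. Such copies were uncommon in the RefSeq table, where 54 of 1674 distinct mature sequences (3.23%) lay at more than 1 gene. The first 30 bases from the 5′ end of these strands follow, with capitals from the first base at which the copies differ.
Mir181a-1, chr1:137966468-137966497, plus strand: aacauucaacgcugucggugaguuuggAAU
Mir181a-2, chr2:38852741-38852770, plus strand: aacauucaacgcugucggugaguuuggGAU
Mir181b-1, chr1:137966650-137966679, plus strand: aacauucauugcugucgguggguuGAACUG
Mir181b-2, chr2:38853845-38853874, plus strand: aacauucauugcugucgguggguuUGAAUG

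The hairpins of Mir181a-1 and Mir181a-2 shared 27 bases from that end and first differed by A28G, past the 23 bases of the mature strand. Those of Mir181b-1 and Mir181b-2 shared 24 bases, the whole of the mature strand, and first differed by G25U at the next base. A read of the exact mature 5p strand therefore fits both copies, whereas a read of 25 bases from the same start fits 1 b gene alone. The counts of these 4 genes can hold 3p strands, loop reads and shifted or longer 5p reads, in proportions that a gene total does not give, and do not measure total miR-181a or miR-181b. Of the 22-base windows of each hairpin, 7 of 66 in Mir181a-1 and 7 of 55 in Mir181a-2 were shared, and these were shared with each other alone among 2202 hairpins searched. For Mir181b-1 and Mir181b-2 the numbers were 5 of 59 and 5 of 68, again shared with each other alone. Mir181c and Mir181d shared 0 windows with any of these hairpins, so exact reads of both of their strands fit 1 annotated hairpin alone. How reads with a mismatch were placed is not given, and miR-181d-5p is close in sequence to miR-181b-5p.

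**Figure D1:**
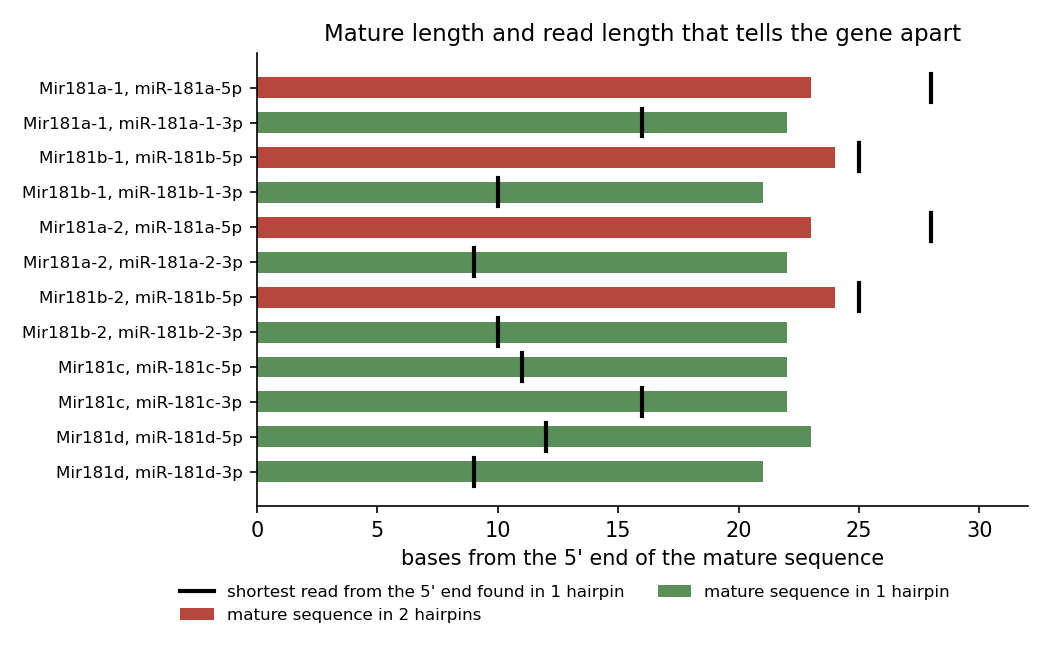
Length in bases of each mature strand of the 6 genes (bars, horizontal axis) and the shortest read from its 5′ end that occurs in 1 annotated hairpin alone (black marks). For miR-181a-5p the mark lies at 28 bases against a mature length of 23, and for miR-181b-5p at 25 against 24, whereas for every other strand it lies inside the bar.

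On GRCm38 with GENCODE M21, Mir181a-1 (ENSMUSG00000065565.1) lies on chromosome 1 from 137966455 to 137966541 and Mir181b-1 (ENSMUSG00000065458.1) from 137966639 to 137966718, both on the plus strand and 97 bases apart. Both lie in an intron of the noncoding gene Gm4258, and all 80 bases of Mir181b-1 and the last 11 bases of Mir181a-1 overlap an exon of the lincRNA A430106G13Rik on the same strand. Mir181a-2 (ENSMUSG00000065423.1) lies on chromosome 2 from 38852735 to 38852810 and Mir181b-2 (ENSMUSG00000065578.1) from 38853830 to 38853918, on the plus strand and 1019 bases apart. They sit opposite to an intron of Nr6a1, an orphan nuclear receptor gene, and all 89 bases of Mir181b-2 also lie opposite to an exon of Gm44144. Mir181d (ENSMUSG00000076338.1) lies on chromosome 8 from 84178716 to 84178787 and Mir181c (ENSMUSG00000065483.1) from 84178873 to 84178961, on the minus strand and 85 bases apart, in an intron of the germ cell gene Nanos3. None of the 6 had a count on the opposite strand (0 genes), which allows levels below 0.670 CPM and 0.568 CPM in replicates 1 and 2.

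The family took 0.646% of the sense counts in replicate 1 and 0.726% in replicate 2, or 0.686% ± 0.0569 (SD, n = 2). The c/d cluster carried most of this, 68.1% ± 0.289 (SD, n = 2) of the family's counts. The a-2/b-2 cluster carried 17.1% ± 2.00 and the a-1/b-1 cluster 14.8% ± 1.71 (SD, n = 2). These 2 clusters changed order, with 15.7% and 16.0% in replicate 1 and 18.5% and 13.6% in replicate 2. At the c/d cluster, reads of the exact 5p strand fit 1 annotated hairpin alone. At the other clusters they fit 2 hairpins and enter no gene's count. These shares, and the lead of the c/d cluster, are therefore those of assignable reads.

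Mir181c was the highest member, with 11296 and 13405 counts in replicates 1 and 2 (2522 and 2539 CPM), or 2531 ± 11.8 CPM. It ranked 50 and 48 among the 1973 genes in replicates 1 and 2. Mir181d had 8459 and 12628 counts (1889 and 2392 CPM), or 2140.2 ± 356 CPM, and ranked 63 and 54. Mir181c lay above its neighbour in both libraries.

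Mir181a-1 had 4561 and 5074 counts (1018 and 961 CPM), or 989.7 ± 40.6 CPM. Mir181b-2 had 3509 and 6170 counts (784 and 1169 CPM), or 976 ± 272 CPM. These 2 genes changed order, since Mir181a-1 was higher in replicate 1 and Mir181b-2 in replicate 2, and their means differed by less than their spread. Mir181a-2 had 1031 and 935 counts (230.2 and 177 CPM), or 204 ± 37.6 CPM. Mir181b-1 was lowest, with 74 and 141 counts (16.5 and 26.7 CPM), or 21.6 ± 7.20 CPM. It still lay above the median of 2.53 CPM over the 712 genes with a count. Apart from Mir181a-1 and Mir181b-2, the libraries of neighbours in this order did not overlap. These differences were not tested, since a two-sided exact permutation test paired by library cannot go below 0.5 with 2 libraries.

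**Figure D2:**
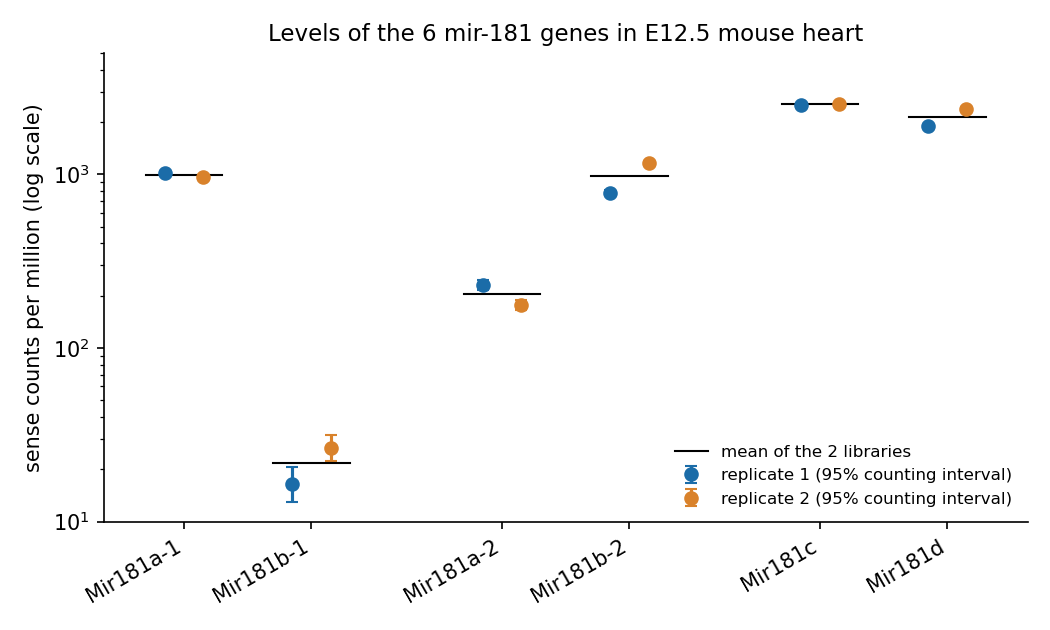
Level in CPM (log scale) of the 6 mir-181 genes in each library, with 95% exact counting intervals and the mean of the 2 libraries as a line. Members range from 21.6 CPM for Mir181b-1 to 2531 CPM for Mir181c, and the libraries change the order of Mir181a-1 and Mir181b-2.

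The tissue label was checked against microRNAs of heart muscle: Mir208b stood at 50918 ± 1313 CPM, Mir208a at 9885 ± 160 CPM and Mir499 at 2138 ± 34.1 CPM. The other 2 genes of that list were near the limit of a count of 0. Mir1a-1 had 11 and 25 counts (3.60 ± 1.61 CPM) and Mir133a-1 had 4 and 13 counts (1.68 ± 1.11 CPM). Because reads that fit several places enter no gene's count, low counts in this and the following lists do not show low levels of the mature strands. Of cell types in which mir-181 is known, endothelium was represented by Mir126a at 67897 ± 1234 CPM, and the white blood cell list by 5 of 6 matched genes with a count, at 0.0332% and 0.0346% of the counts in replicates 1 and 2. Mir142 of that list matched no counted gene, so it was not measured here, and Mir142b had 0 counts. Of the matched genes, Mir223 and Mir155 led with 160 ± 7.76 and 156 ± 16.6 CPM, below 5 of the 6 mir-181 genes. In the neural list 6 of 9 matched genes had a count, and Mir9-1 was not matched. Mir128-1 and Mir219a-1 led with 60.4 ± 1.79 and 18.2 ± 1.39 CPM. The smooth muscle list took 8.88% and 9.05% of the counts in replicates 1 and 2. Its 2 genes were Mir143 at 88442 ± 1103 CPM and Mir145a at 1204 ± 105 CPM. In whole tissue, fewer cells of a type and less RNA per cell cannot be told apart.

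Neighbours in a cluster stood in very different proportions, and the direction differed between the clusters. On chromosome 1 the a gene exceeded the b gene, with 61.6 counts of Mir181a-1 per count of Mir181b-1 in replicate 1 (95% exact counting interval 49.0 to 78.6) and 36.0 in replicate 2 (30.4 to 42.8). On chromosome 2 the b gene exceeded the a gene, with 3.40 counts of Mir181b-2 per count of Mir181a-2 in replicate 1 and 6.60 in replicate 2. The ratio of Mir181c to Mir181d was close to even, 1.34 in replicate 1 (1.30 to 1.37) and 1.06 in replicate 2 (1.04 to 1.09). Intervals cover counting error only. The directions in the a/b clusters were the same in both libraries, and the gap between these clusters was far wider than the spread between libraries.

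The gene counts of copies with the same mature 5p strand were just as unequal. Mir181b-2 exceeded Mir181b-1 by a ratio of 45.6 ± 2.59 (SD, n = 2), and Mir181a-1 exceeded Mir181a-2 by a ratio of 4.93 ± 0.709 (SD, n = 2). The copy with the higher count therefore lay on chromosome 1 for the a genes and on chromosome 2 for the b genes. These ratios compare the reads that fit 1 copy alone. Exact reads of the mature 5p strand fit both copies, so the ratios do not show which copy makes more of that strand. Divided by the length of the annotated hairpin, the mean ratios kept their directions except for Mir181c over Mir181d. That mean ratio was 0.970 on this scale, so the order of these 2 genes by the mean depends on that choice. Mature strands are sequenced from end to end, and the counts in this text are not scaled by length unless stated.

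**Figure D3:**
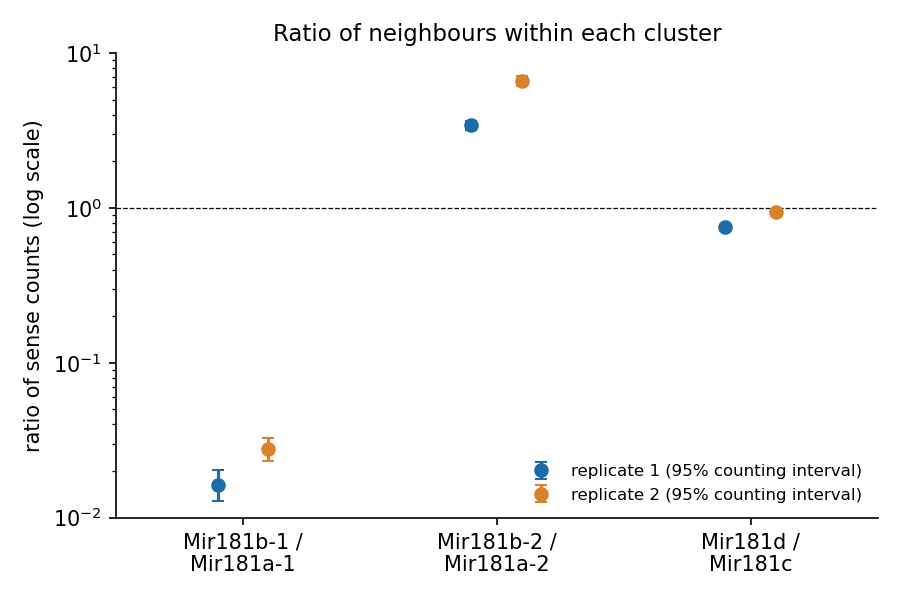
Ratio of sense counts of the b or d gene over its a or c neighbour (log scale) in each cluster and library, with 95% exact counting intervals and a dashed line at equal counts. Mir181b-1 lies far below Mir181a-1, Mir181b-2 lies above Mir181a-2 at 3.40 and 6.60, and in every cluster the point of replicate 2 is the higher.

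Between the libraries, the b and d genes were higher in replicate 2 and the a genes lower, while Mir181c barely differed. The ratio of replicate 2 over replicate 1 in CPM was 1.62 for Mir181b-1 (95% exact counting interval 1.21 to 2.17), 1.49 for Mir181b-2 (1.43 to 1.56) and 1.27 for Mir181d (1.23 to 1.30). It was 0.944 for Mir181a-1 (0.906 to 0.982), 0.769 for Mir181a-2 (0.703 to 0.841) and 1.01 for Mir181c (0.982 to 1.03). Mir181b-1, Mir181b-2 and Mir181d together took 0.269% of the counts in replicate 1 and 0.359% in replicate 2. Mir181a-1, Mir181a-2 and Mir181c together took 0.377% and 0.368%.

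Relative to its a or c neighbour, the b or d gene was thus higher in replicate 2 than in replicate 1 in all 3 clusters, a grouping chosen after the values were seen. The count ratio of Mir181b-1 to Mir181a-1 was 1.71 times as high in replicate 2 as in replicate 1 (95% exact counting interval 1.28 to 2.31). For Mir181b-2 to Mir181a-2 this factor was 1.94 (1.76 to 2.14), and for Mir181d to Mir181c it was 1.26 (1.21 to 1.31). The ratio of the copies Mir181b-2 to Mir181b-1 had a factor of 0.923 with an interval of 0.685 to 1.24, which includes 1. Each factor sets 1 library against 1 and needs no scaling between them.

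A two-sided exact binomial test per gene, adjusted by Benjamini-Hochberg over 712 genes, called 5 of 6 members at an adjusted p of 0.05, against 16.7% of all genes tested. Of these, 3 were higher in replicate 2, against 8.01% of all genes, and 2 were lower, against 8.71%. The adjusted p in this exact test was 2.12e-80 for Mir181b-2, 1.60e-62 for Mir181d, 8.23e-08 for Mir181a-2, 0.00555 for Mir181b-1, 0.0283 for Mir181a-1 and 0.918 for Mir181c. Calls follow depth: among the 286 genes with at least 100 counts in total, a set that holds all 6 members, 45.5% were called. With a ratio of at least 2-fold as well, 0 members were called, against 0.421% of all genes.

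This test holds counting error alone and compares 2 libraries, not conditions. An edgeR exact test with the common dispersion of the same libraries called 0 members, against 0.45% of 444 genes. At an unadjusted p under 0.05 stood 2 members, Mir181b-1 and Mir181b-2, against 20 of the 444 genes (4.50%). Its dispersion came from the same 2 libraries that it compares, so its few calls say nothing on whether members differed beyond the spread between replicates, which 1 library a side cannot show. The call of Mir181a-1 was also lost with TMM scaling, where its log2 ratio was −0.06 in place of −0.08.

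Set beside the 286 genes with at least 100 counts, whose median absolute log2 ratio was 0.14, Mir181b-1 (log2 ratio 0.69) had 8 genes with a larger absolute ratio and Mir181b-2 (0.58) had 13. Mir181a-2 (−0.38) had 33 such genes and Mir181d (0.34) had 39. Mir181a-1 (−0.08) had 193 and Mir181c (0.01) had 272. The median log2 ratio was 0.18 over the 6 members and −0.01 over the 286 genes. Of the marker lists, the erythroid list also differed between the libraries, at 0.0986% and 0.186% of the counts. Mir451a in it stood at 770 and 1671 CPM in replicates 1 and 2, Mir144 stood at 156 and 140 CPM and Mir486 at 60.3 and 46.8 CPM. The liver microRNA Mir122 stood at 180.6 and 32.4 CPM. The part of these cell types in the differences of the members was not tested.

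**Figure D4:**
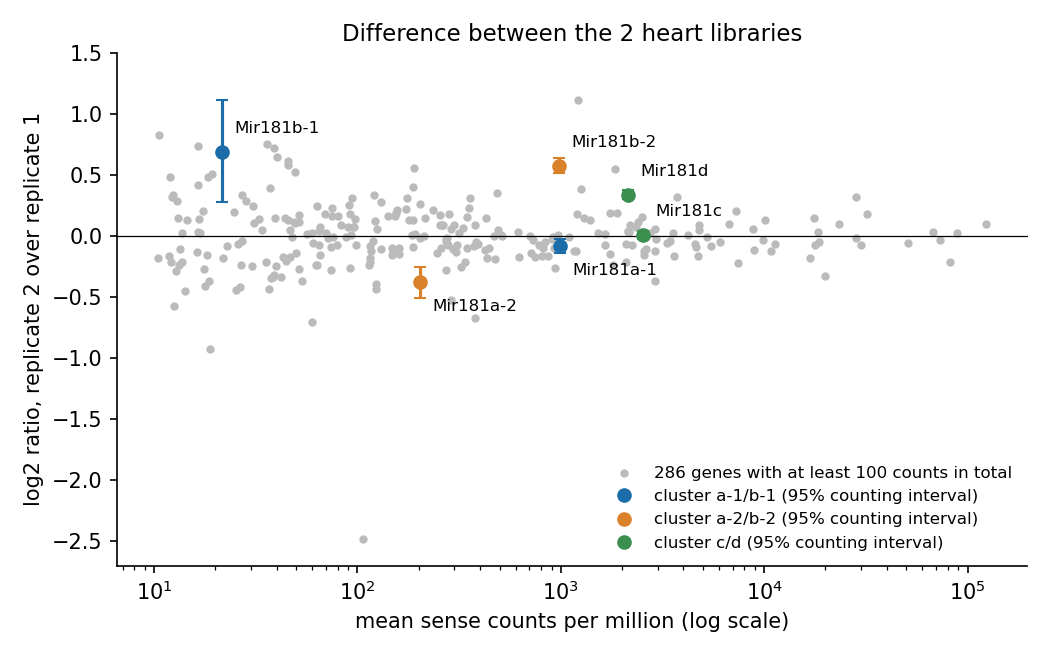
Log2 ratio of replicate 2 over replicate 1 against mean CPM (log scale) for the 286 genes with at least 100 counts in total (grey) and the 6 mir-181 genes, coloured by cluster, with 95% exact counting intervals. Mir181b-1, Mir181b-2 and Mir181d lie above 0, Mir181a-2 and Mir181a-1 below, and Mir181c at 0.01.

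Genes most like each member in level were found by distance in log2(CPM + 1) over the 2 libraries. Mir541 at 1925 and 2384 CPM was nearest to Mir181d, at a distance of 0.03, and Mir302a followed at 0.19. Mir542 (2630.0 ± 6.73 CPM) and Mir1983 (2560.1 ± 153 CPM) were nearest to Mir181c, and Mir467d (957 ± 16.7 CPM) and the hypoxia-linked Mir210 (964 ± 3.53 CPM) to Mir181a-1. Mir669l (188 ± 8.32 CPM) and Mir500 (203 ± 1.57 CPM) were nearest to Mir181a-2, and Mir6944 (19.2 ± 4.73 CPM) and Mir218-1 (18.5 ± 4.37 CPM) to Mir181b-1. Mir181b-2 had the least similar neighbours, Mir210 at a distance of 0.40 and Mir148a (917 ± 3.05 CPM) at 0.42, since neither differed between the libraries as it did.

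A list of microRNAs known, like mir-181, from blood cell development took 3.84% ± 0.160 (SD, n = 2) of the counts, most of it from Mir17 (23223 ± 1149 CPM) and Mir20a (8792 ± 255 CPM), microRNAs of a cluster linked to proliferation. Of its 13 genes with a count, 4 were called higher in replicate 2 and 0 lower by the exact binomial test, against 8.01% and 8.71% of all genes tested, and 9 were not called. Of genes with at least 100 counts, 45.5% were called in either direction. The list's median log2 ratio was 0.10.

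Families that also have duplicated clusters stood at other levels. The mir-30 family took 5.998% ± 0.487, the 5 genes analysed here of the mir-23/27/24 clusters 3.01% ± 0.173 and the mir-29 family 0.0389% ± 0.00156 of the counts (SD, n = 2), so mir-181 lay between the latter 2 in both libraries. The range within these families was also wide, from Mir30e at 32001 to Mir30c-2 at 31.1 CPM, from Mir23a at 16862 to Mir24-2 at 330.5 CPM and from Mir29a at 289 to Mir29b-2 at 1.24 CPM. A spread of this size in the counts of members was thus not seen in mir-181 alone. These counts too leave out reads that fit several places, so the ranges need not be those of mature strand levels. These differences between families were not tested, for the same reason as those between members.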

How the data were processed

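MicroRNA-sized RNA from 2 heart samples was analysed. The deposited tables, 1 per library, hold unnormalized read counts for each microRNA gene on assembly mm10 with annotation M4 per the file headers in the deposited descriptions. Which aligner and counter were used is not given in the sources used here. The 3 count columns have no names. The column taken as sense was inferred from the values, since it holds nearly all counts made without regard to strand. The 4 opening rows, which name no gene, held 51.5% and 50.2% of reads in replicates 1 and 2 and stayed out of library sizes and tests.

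Symbols and coordinates came from GENCODE M21 (1894 of 1973 identifiers matched, without version), so hairpin bounds may differ from those counted. Mature sequences came from RefSeq (GRCm38.p6), and 5 of the 6 hairpins in its table were identical to the M21 transcripts. The sixth, of Mir181c, was taken from M21 alone. Sequence sharing was searched on both strands of M21 hairpins, not in the genome. Lists were matched by symbol or RefSeq synonym.

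CPM used the sum of sense counts. Replicate 2 was compared with replicate 1 by an exact binomial test over genes with a count, and by an edgeR exact test over genes with at least 10 counts. A pseudocount of 1 was used for distances. The binomial test was tried on simulated counts of 712 genes, drawn with counting error alone and without spread between replicates. There it called, with the 2-fold minimum, 42 of 42 genes changed 2.5-fold and 47 of 47 changed 4-fold, each with at least 100 counts. It also called 2 of 486 unchanged genes with that minimum and 4 of 486 without that minimum. Few calls of unchanged genes are built into such a simulation, so they give no error rate for these libraries. Alternatives changed the strand column, denominator, scaling, filter, test, window and hairpin length. Tools were edgeR 4.0.16 and DESeq2 1.42.0 in R 4.3.3, and Python 3.11.15 with scipy 1.17.1. The named genes were the members, the 2 nearest genes of each, the heart markers, the 2 highest genes of each list and the extremes of the comparison families. Mir486 was named after its values were seen. Members and lists were chosen with earlier results of these data known. No molecular identifiers are stated, so intervals and limits from a count of 0 (3 counts) cover counting error only.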

Additional observations from a re-analysis of the deposited data

How the results depend on the processing

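No paired analysis was possible because both libraries belong to 1 group. With all reads of a library as the denominator, the family's share was 0.338% in place of 0.686%, since that total includes reads that name no gene, and it ranged from 0.646% to 0.726% when either replicate was left out. TMM, DESeq2 size factors, unstranded counts and a minimum of 10 counts kept the share within 1 SD. Per base of hairpin, the mean ratio of Mir181c over Mir181d turned to 0.970, where the unscaled ratios were 1.34 and 1.06 in replicates 1 and 2. The ratio of the a-1/b-1 cluster to the a-2/b-2 cluster, 0.877 on average, turned without replicate 2 and ranged from 0.734 to 1.02 over the libraries, so these clusters have no settled order. The number of members called between the libraries, 5, was 4 with unstranded counts, TMM or DESeq2 size factors, where Mir181a-1 was lost. It was 0 with a 2-fold minimum and 0 with the edgeR exact test, and 5 with a minimum of 10 counts. With 2 alternatives added after seeing the data, a minimum of 100 counts and totals without Mir451a and Mir122, it was 5. No member's log2 ratio changed sign in these alternatives. With pseudocounts of 0.5 or 5, or a minimum of 10 counts, all 6 members had the same nearest genes. Windows of 18 or 20 bases gave the same partners. Counts of Mir181b-1 (74 and 141) limit its precision.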
